A study of Mus musculus with 3 samples.

Results

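A set of 50 cells with dendritic and MHC class II transcripts was examined in scRNA-seq of the brain around an implanted GBM. The cells were chosen by a rule on measured UMIs (unique molecular identifiers, each a distinct captured RNA molecule). A cell needed at least 1 UMI of H2-Aa, an MHC class II chain, and at least 1 UMI of at least 2 of the 6 genes Cd209a, Flt3, Clec10a, Mgl2, Kmo and Retnla. It had no UMI of Cd79a or Arg1, fewer than 2 of the 6 nonclassical monocyte genes Ear2, Adgre4, Treml4, Cd300e, Fabp4 and Eno3, and fewer than 3 of the 5 microglia genes P2ry12, Tmem119, Sall1, Gpr34 and Olfml3. Of 4269 cells kept from 3 libraries, the 50 gated cells made up 1.17%.

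The libraries came from female C57BL/6 mice aged 6 to 8 weeks, and all mice of both groups had been implanted in the brain with BTICs (brain tumor-initiating cells) of 1 line, derived from NPcis mice that carry Nf1 and Trp53 mutations. The vehicle group received saline and gave 1 library here, vehicle replicate 2. The niacin group received 100 mg/kg niacin daily by intraperitoneal injection from day 7 after implantation and gave niacin replicates 1 and 2. Tissue around the injection site was taken at 4 weeks, 5 mice were pooled per library by the study's methods (the labels also speak of 4 pooled brain tissues), and live cells were sorted. A single pool of vehicle mice gives no spread between control mice, so no test of niacin was made, and all intervals cover counting error only.

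Dendritic cells take up antigen, load peptides on MHC class II molecules and present them to CD4 T cells. Conventional dendritic cells depend on the receptor Flt3 and express the transcription factor Zbtb46, plasmacytoid dendritic cells make type I interferon, and monocytes that enter inflamed tissue can take on dendritic features under the name of monocyte-derived dendritic cells. Cd209a, Clec10a and Mgl2 are C-type lectins that bind glycans, and Kmo is an enzyme of the kynurenine pathway, by which tryptophan is turned into NAD. The study was concerned with microglia that express the kinase PKCδ (Prkcd) in GBM, and its scRNA-seq set niacin-treated beside control tumor-bearing mice.

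MHC class II genes share a promoter architecture that holds a Y box, a CCAAT element read as ATTGG on the other strand, bound by NF-Y in B cells, macrophages and dendritic cells alike. The RefSeq promoters of H2-Aa, the chain the rule used, and H2-Eb1, which it did not, are shown because these transcripts are among the most abundant of the cells described here. They run from 250 bases before the start site to 50 after it (build GRCm38.p6, H2-Aa at chr17:34287774-34288073 on the minus strand, H2-Eb1 at chr17:34305617-34305916 on the plus strand), are written along each gene's own strand, and have ATTGG or its reverse complement CCAAT in capitals.
H2-Aa: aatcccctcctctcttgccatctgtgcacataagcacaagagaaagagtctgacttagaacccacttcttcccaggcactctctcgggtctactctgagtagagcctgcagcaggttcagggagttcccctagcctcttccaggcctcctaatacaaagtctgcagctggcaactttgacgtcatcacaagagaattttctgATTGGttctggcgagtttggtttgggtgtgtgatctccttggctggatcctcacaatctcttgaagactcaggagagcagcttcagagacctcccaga
H2-Eb1: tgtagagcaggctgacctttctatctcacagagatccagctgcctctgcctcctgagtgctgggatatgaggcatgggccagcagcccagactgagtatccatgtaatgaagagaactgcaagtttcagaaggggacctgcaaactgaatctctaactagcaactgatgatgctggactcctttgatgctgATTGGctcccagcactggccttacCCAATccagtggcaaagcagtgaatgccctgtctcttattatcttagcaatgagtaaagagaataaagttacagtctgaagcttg

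The motif began at position -48 from the start site in H2-Aa and at -59 and -35 in H2-Eb1. On either strand, 8 of the 9 promoters of the MHC class II list that the table holds had it, 2 of 6 promoters of the genes the rule requires (Cd209a, Flt3, Mgl2, Kmo, Retnla and H2-Aa), and 37.4% of all 32851 promoters of this length. These matches are letters in a window and were not tested against the expression data.

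The gated cells were unevenly spread over the libraries. Vehicle replicate 2 held 37 of 1264 cells, a share of 2.93% (exact binomial 95% confidence interval 2.07% to 4.01%). Niacin replicate 1 held 1 of 1411 cells, 0.0709% (0.00179% to 0.394%), and niacin replicate 2 held 12 of 1594 cells, 0.753% (0.390% to 1.31%). The vehicle interval lay above both niacin intervals, and the niacin intervals met only near 0.390%. When the rule was read on cells thinned to 2000 UMIs each, the shares were 2.25%, 0.187% and 0.523%, and among cells with at least 2 UMIs of the myeloid genes Csf1r, Lyz2, Tyrobp and Fcer1g they were 3.66%, 0.0936% and 0.924%. At 3 of the 6 genes in place of 2 the vehicle share fell to 1.42% (18 cells) with an interval of 0.846% to 2.24%, which overlapped that of niacin replicate 2, 0.177% to 0.903%. Fewer such cells and less RNA of the marker genes in each cell cannot be told apart by this rule.

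**Figure D1:**
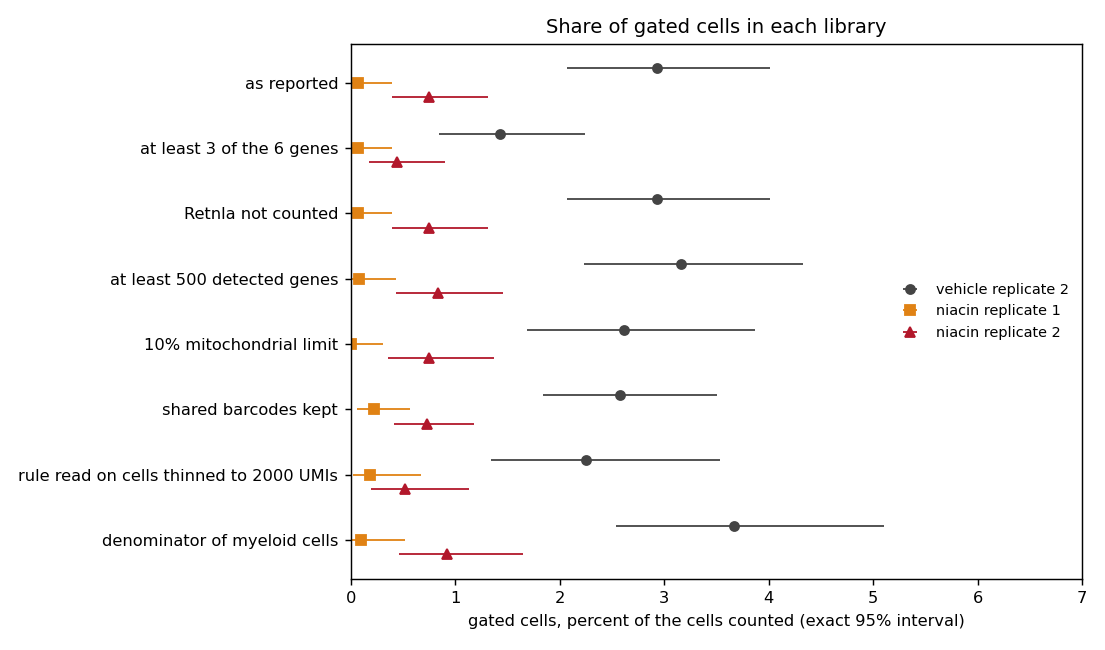
Share of gated cells among the cells of each library (x axis, percent) under each reading of the rule (y axis), with exact binomial 95% confidence intervals as bars; dots, squares and triangles are the 3 libraries. Vehicle replicate 2 lies to the right of both niacin libraries in every row, at 2.93% against 0.0709% and 0.753% as reported.

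Depth and quality differed between these cells. The gated cells held 369341 UMIs in vehicle replicate 2, 3442 in the single cell of niacin replicate 1 and 149193 in niacin replicate 2, with medians of 6792, 3442 and 14006 UMIs per cell, so 1 UMI of the niacin replicate 1 cell stands for 291 CPM (counts per 1000000 UMIs of the summed cells). Mitochondrial UMIs made up a median of 6.8% in vehicle replicate 2 and 3.25% in niacin replicate 2, and 19.3% in the niacin replicate 1 cell, close to the limit of 20%. In all, 924 barcodes occur in more than 1 library. A barcode was dropped unless it had at least 5 times the UMIs of its copy, and 22 of the 50 gated cells were kept on that ground. With all shared barcodes kept, the counts were 39, 4 and 16 cells. Doublets were not called.

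The 6 rule genes were seldom found together. Kmo had a UMI in 40 of the 50 cells, Clec10a in 33, Flt3 in 24, Cd209a in 22, Mgl2 in 13 and Retnla in 1. These values chose the cells and are given as a description. Exactly 2 of the 6 genes were found in 24 cells, 3 in 19 and 4 in 7. The commonest pair was Clec10a with Kmo, in 24 cells, followed by Flt3 with Kmo in 19 and Cd209a with Kmo in 18, whereas Cd209a and Mgl2 shared 4 cells and Flt3 and Mgl2 shared 2. Retnla came from 1 cell of niacin replicate 2 with 218 UMIs, and leaving Retnla out of the rule changed no count. Just outside the rule stood 57 cells with 1 of the 6 genes and H2-Aa, with a median of 43.5 UMIs of H2-Aa per 10000 against 48.9 in the gated cells with exactly 2 genes, and 9 cells with at least 2 of the 6 genes and no H2-Aa UMI.

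In cells that should lack these genes the shares were low. Among T cells, Cd209a had a UMI in 3 of 188 cells in vehicle replicate 2 and in none of 132 and 146 cells in niacin replicates 1 and 2, which allows up to 2.76% and 2.49% there, and Kmo in 1, 1 and 0 cells. Clec10a was found in 1 vehicle T cell and Mgl2 in none. H2-Aa was different, since it was detected in 19.7% of T cells in vehicle replicate 2 against 2.27% and 2.05% in the niacin libraries. Of the gated cells, 2 had a single H2-Aa UMI, and both were of vehicle replicate 2. Clec10a and Mgl2 are neighboring paralogs on chromosome 11. None of 470 windows of 31 bases at the end of Mgl2 occurs in a Clec10a transcript, whereas 24.7% of those at the end of Clec10a occur in a Mgl2 transcript, so part of the Clec10a signal is uncertain.

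The working name of the set, monocyte-derived dendritic-like cells, rests on 5 markers (Cd209a, Clec10a, Mgl2, Kmo and H2-Eb1). At least 3 of them were found in 39 of the 50 cells and all 5 in 1, but 4 of the 5 are genes of the rule, so these counts were largely fixed by the choice of cells and only describe it. At least 2 of 11 dendritic lineage genes, counted without the rule's Flt3, were found in 47 cells (94%, 83.5% to 98.7%, at a median of 8663 UMIs per cell). The same was true of 74.1% of nonclassical monocytes (median 7509 UMIs) and 38.8% of T cells (median 5764 UMIs). At least 2 of 14 monocyte genes were found in 45 cells (90%, 78.2% to 96.7%), a share not set against other classes. Zbtb46 was detected in 10 cells (20%, 10.0% to 33.7%), against 2.53% of nonclassical monocytes and 0.644% of T cells, and Ccr2 or Ly6c2, which mark classical monocytes, in 43. Ccr2 was not limited to monocytes here. In vehicle replicate 2 and niacin replicates 1 and 2 it was detected in 27.1%, 25% and 31.5% of T cells. In microglia the shares were 8.61%, 1.92% and 2%. Of the 350 Ly6c2 UMIs of the gated cells of vehicle replicate 2, 172 came from 1 cell. That cell also had 99 UMIs of Ccr9, a gene of the plasmacytoid list. Monocyte origin was not tested. Cd209a was at 0 in 28 cells, and of the 22 cells with it 20 had Ccr2 or Ly6c2. With 28 cells lacking Cd209a, the set is called by its rule here.

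Several cells carried the programs of other subsets. These were noticed after the values were seen, and no test was made. At least 4 of the 6 plasmacytoid genes (Siglech, Ccr9, Tcf4, Pacsin1, Ly6d and Cox6a2) were found in 5 cells, 4 of vehicle replicate 2 and 1 of niacin replicate 2. The most marked had 99 UMIs of Ccr9, a homing receptor, and 154 of Ly6d, and these 5 cells had 1, 3, 3, 9 and 3 UMIs of Kmo but hardly any Cd209a, a single UMI in 1 of them. Of the 623 CPM of Ly6d in vehicle replicate 2, all came from 4 cells.

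Another 4 cells had at least 10 UMIs of Ccl24, an eosinophil-attracting chemokine. They had 27, 321 and 81 UMIs in vehicle replicate 2 and 186 in niacin replicate 2, and each also held Mgl2, with 15, 11, 13 and 48 UMIs. The last of them was the Retnla cell. These 4 cells account for 99.8% of the 616 Ccl24 UMIs. Xcr1, the receptor that marks type 1 conventional dendritic cells, was found in 3 cells. One of them, of vehicle replicate 2, had 12 Xcr1 and 31 Itgae UMIs, but also 1296 UMIs of Ttr and 275 of Enpp2, which are choroid plexus genes. That cell holds 98.9% of the Ttr UMIs of the gated cells of its library. At least 2 of the 6 genes of mature dendritic cells were found in 4 cells, and Ccr7, by which mature cells migrate to lymph nodes, in 1 cell with 4 UMIs.

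**Figure D2:**
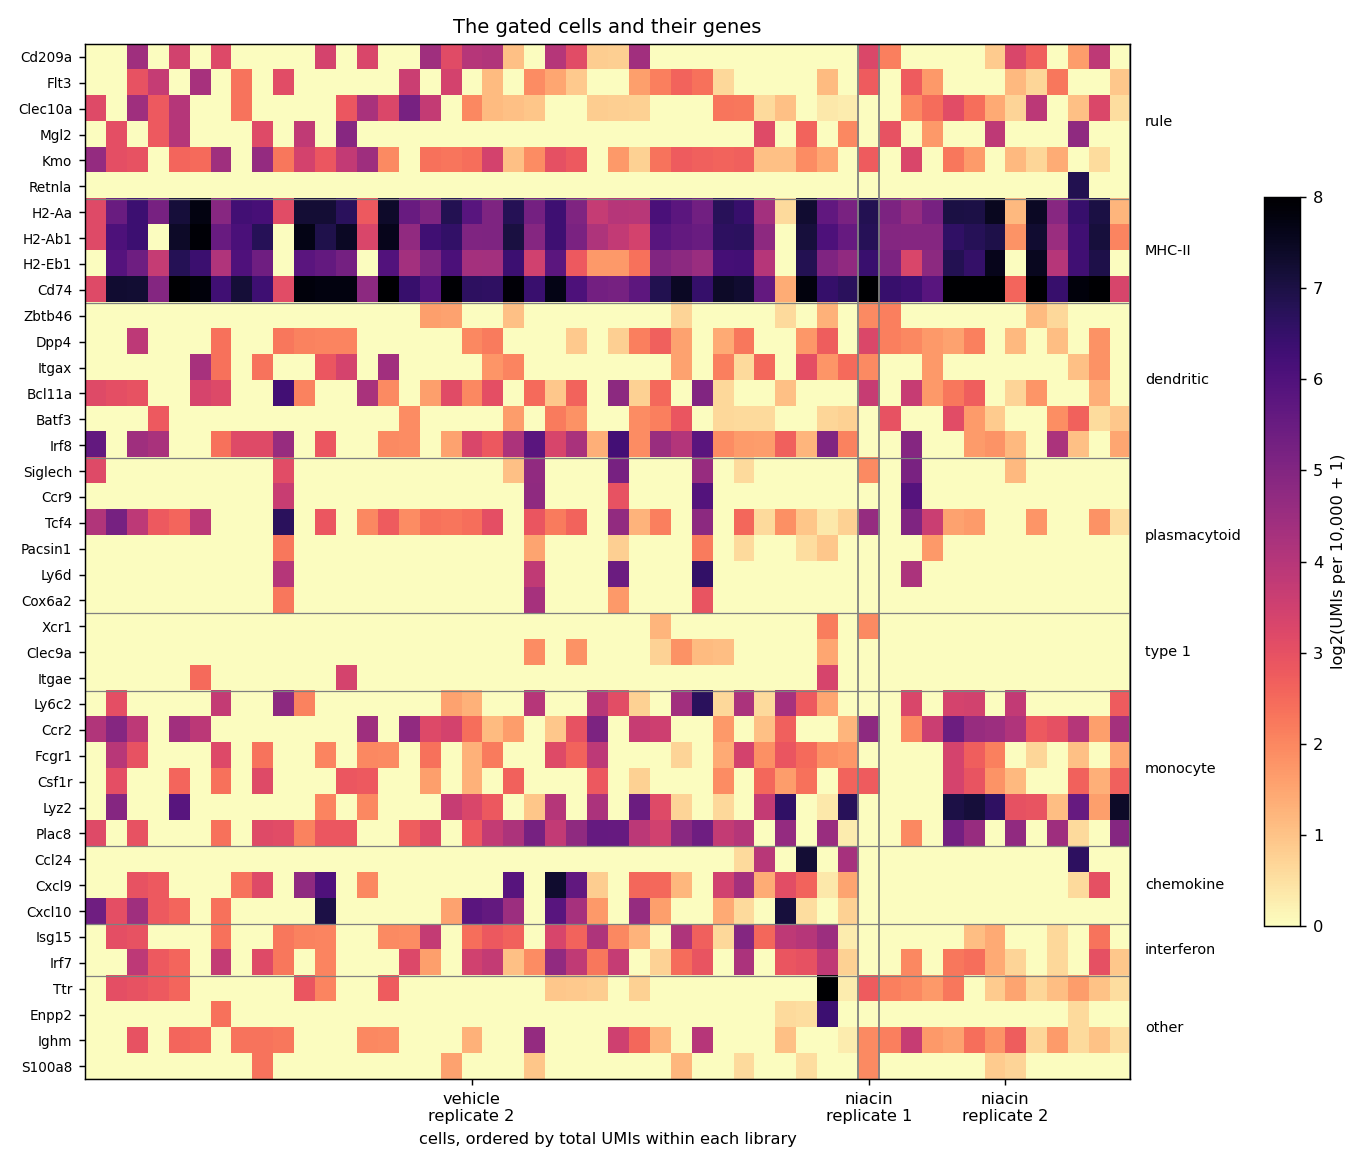
Heat map of the 50 gated cells (columns, ordered by total UMIs within each library) and 40 genes (rows, grouped by list), colored by log2(UMIs per 10000 + 1), with the darkest color standing for 8 or more. MHC class II genes are dark in nearly all cells, plasmacytoid genes stand out in 5 columns, Ccl24 in 4, and Ttr in 1.

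Markers of other cell types were found in many gated cells. Cells with at least 2 of the markers of T, NK and B cells, neutrophils, erythroid cells and choroid plexus, counted over all 6 lists, made up most of the set, and leaving them out kept 7 of the 50. This was not particular to the gated cells. In the classes compared below, the same cut kept 7 of 158 nonclassical monocytes, 61 of 215 classical monocytes and macrophages, and 77 of 1969 microglia. In sums, the 5 T cell genes reached 21.7, 291 and 53.6 CPM in vehicle replicate 2 and niacin replicates 1 and 2, the 5 NK cell genes 24.4, 291 and 0 CPM, the 5 neutrophil genes 81.2, 581 and 60.3 CPM, and the 4 erythroid genes 16.2, 581 and 154 CPM. The 5 B cell genes reached 379, 291 and 248 CPM, with Cd79a (set to 0 by the rule) and Ms4a1 at 0 in all libraries. The 4 choroid plexus genes stood at 4392, 581 and 134 CPM, and 98.9% of the Ttr UMIs of the vehicle cells came from 1 cell. The 8 border macrophage genes summed to 217, 0 and 161 CPM. At least 1 of them was found in 16 of the 37 vehicle cells (43.2%), and at least 2 in 9 of the 50 gated cells. In the vehicle cells Mrc1 had 65 UMIs (176 CPM), Ms4a7 14 and Pf4 1, while Cd163, Lyve1 and Folr2 had none. Mrc1 and Ms4a7 rose against microglia in the edgeR comparison described below, with log2 fold changes of 2.64 ± 0.56 (adjusted p = 0.00011) and 1.82 ± 0.55 (adjusted p = 0.014). The part of these markers in the results below was not tested beyond the values given there.

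MHC class II transcripts were among the most abundant in the gated cells, as the rule on H2-Aa requires in part. Cd74, the invariant chain, stood at 11315 CPM in vehicle replicate 2, 34282 CPM in niacin replicate 1 and 19666 CPM in niacin replicate 2. In nonclassical monocytes it stood at 2462, 4236 and 1454 CPM, in classical monocytes and macrophages at 7787, 683 and 1757 CPM, and in microglia at 2614, 260 and 382 CPM. The gated cells were thus the highest class in every library. H2-Ab1, the beta chain of I-A, had 6043, 10750 and 7051 CPM in the gated cells, against 4178, 297 and 276 CPM in classical monocytes and macrophages, the next highest class of the vehicle library. H2-Eb1, the beta chain of I-E, had 3485, 8425 and 7447 CPM. From cell to cell H2-Aa ran from 0.532 to 212 UMIs per 10000, with a median of 51.1, and H2-Eb1 had no UMI in 6 of the 50 cells.

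The genes that load and edit class II peptides followed at lower levels. H2-DMa had 742, 1453 and 818 CPM, H2-DMb1 had 642, 2324 and 576 CPM, and H2-Oa, of the inhibitor of peptide exchange, had 133, 0 and 107 CPM. Ciita, the transactivator of class II genes, had 468, 872 and 201 CPM. In nonclassical monocytes Ciita stood at 104, 73.7 and 27.6 CPM and in microglia at 55.5, 1.49 and 3.38 CPM.

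**Figure D3:**
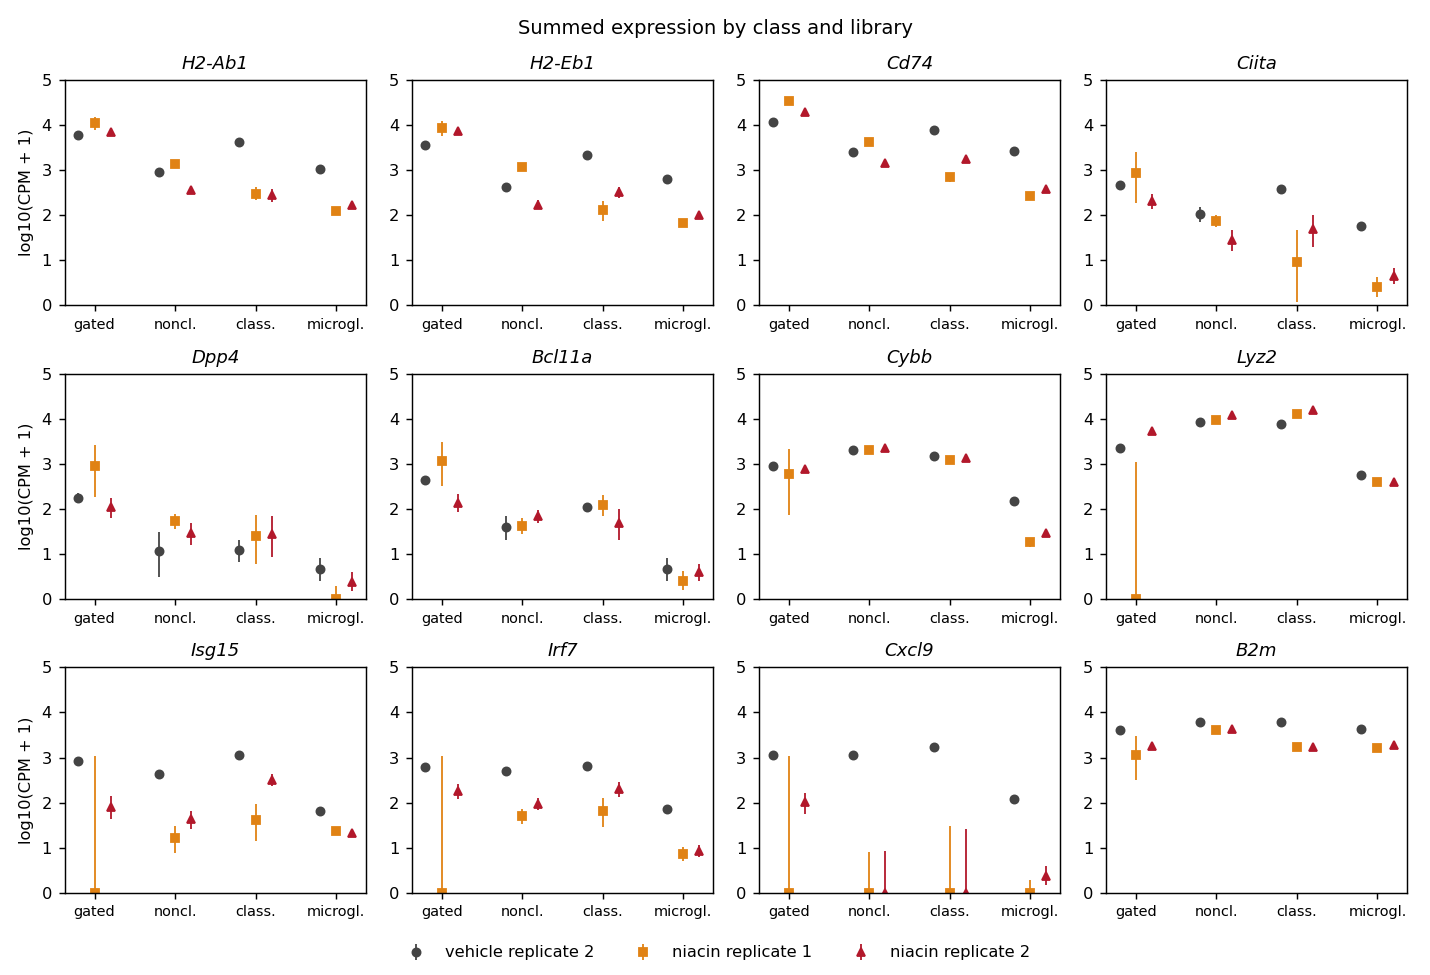
Expression of 12 genes as log10(CPM + 1) of summed UMIs (y axis) in the gated cells, nonclassical monocytes, classical monocytes and macrophages, and microglia (x axis), with exact Poisson 95% intervals; colors and symbols are the 3 libraries. Cd74, H2-Ab1 and H2-Eb1 are highest in the gated cells of every library, at 11315, 34282 and 19666 CPM for Cd74. Cybb lies lower there than in both monocyte classes, a difference that was not called in either comparison.

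To find what the gated cells share beyond the rule, the UMIs of each class were added up within each library, and the gated cells were compared with each other class by the quasi-likelihood test of edgeR, in which the library was a block and p-values were adjusted by Benjamini-Hochberg. Nonclassical monocytes had at least 2 of the 6 nonclassical genes and microglia at least 3 of the 5 microglia genes. Classical monocytes and macrophages had at least 2 of the 7 genes Ly6c2, Ccr2, Chil3, F13a1, Vcan, Fn1 and Plac8, met neither of the other rules, and had no UMI of Arg1, Cd79a or Retnlg. Genes of the gates and of the MHC class II list were left out of all counts. The classes were cut on opposed genes, so genes that follow those from cell to cell had to differ. The p-values measure the spread between 3 pools, in 1 of which the gated side is a single cell of 3442 UMIs.

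Against nonclassical monocytes (37, 68 and 53 cells in vehicle replicate 2 and niacin replicates 1 and 2), which patrol vessels, 136 of 4556 genes tested were called (2.99%), 42 of them higher in the gated cells (0.922%) and 94 lower (2.06%). The median log2 fold change of all genes tested was -0.11. Of 8 dendritic lineage genes tested, 3 rose and none fell, with a median log2 fold change of 1.13. Dpp4, a peptidase of conventional dendritic cells, had 173, 872 and 107 CPM in the gated cells and 10.4, 52.9 and 27.6 CPM in nonclassical monocytes. Its log2 fold change was 2.79 ± 0.60 (SE, adjusted p = 0.00046). Batf3, a transcription factor of type 1 conventional dendritic cells, rose by 3.90 ± 0.65 (adjusted p = 1.0e-06), although the single niacin replicate 1 cell had none. Bcl11a, which plasmacytoid cells need, rose by 2.52 ± 0.64 (adjusted p = 0.0055), and of its 159 UMIs in the vehicle cells 72.3% came from 4 cells and 52 from 1.

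The genes with the largest increases by the naming rule were of several kinds. Btla, an inhibitory receptor, had 51.4, 291 and 33.5 CPM in the gated cells, from 25 UMIs in all, against 0, 3.78 and 1.97 CPM (log2 fold change 4.67 ± 0.93, adjusted p = 0.00012). Klrd1, the CD94 chain of NK receptors, had 130, 581 and 288 CPM against 10.4, 7.56 and 51.2 CPM (3.20 ± 0.63, adjusted p = 0.00012). Ccnd1, a cyclin of the G1 phase, had 498, 291 and 261 CPM against 48.6, 51.0 and 21.7 CPM (3.17 ± 0.68, adjusted p = 0.00045). These 3 genes were chosen for being higher in each library, with at least 1 UMI in the niacin replicate 1 cell. That their groups did not overlap is therefore a description only. Dab2, an endocytic adaptor, rose by 4.23 ± 0.66 (adjusted p = 1.6e-07), with 241, 3486 and 127 CPM, and Bach2, a repressor in lymphocytes, by 2.92 ± 0.75 (adjusted p = 0.0061). 1700025G04Rik, Ddhd2, Rnd3 and Siglech completed the 10, with log2 fold changes of 3.59, 3.48, 3.07 and 2.84. Siglech marks plasmacytoid cells and microglia, and 94.0% of its UMIs in the gated cells came from 4 cells. It was no longer called without any 1 of the 3 libraries, without the filter on low counts, nor under DESeq2 (adjusted p = 0.217).

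Of the 10 genes with the largest decreases, 1, Ace, is on the list of nonclassical monocyte genes. Clec4e (Mincle, a receptor for mycobacterial lipids), S1pr5 (a sphingosine-1-phosphate receptor) and Scnn1a had no UMI in any gated cell, against 125, 134 and 110 CPM for Clec4e in the nonclassical monocytes. Over the summed libraries the 3 genes were at least 21.4-fold, 22.6-fold and 15.8-fold lower, taking 3 UMIs for a count of 0. Cdc42ep2, Sh3bp5, Adrb1 and Dnah12 were also at 0 in the gated cells. Ace, which cleaves angiotensin, had 16.2, 0 and 6.70 CPM against 531, 860 and 709 CPM, a decrease in every library. Slc12a2, an ion transporter, kept 2 UMIs in the gated cells against 450, and Pglyrp1, which binds peptidoglycan, 5 against 766. Markers of neutrophils summed to 48185 CPM in the nonclassical monocytes of niacin replicate 2, against 295 and 361 CPM in the other libraries, and their part in the values of Clec4e and Pglyrp1 was not tested. Ace, Nr4a1 and Spn, the 3 genes of the nonclassical list that were tested and not used by the gates, all fell.

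Classical monocytes and macrophages (191, 11 and 13 cells) are named by their rule only. In niacin replicates 1 and 2 this class carried granule genes of neutrophils at high levels, with S100a8 at 31319 and 19734 CPM, so the name is uncertain there. In this comparison 22 of 2360 genes tested were called (0.932%), 6 of them higher in the gated cells (0.254%) and 16 lower (0.678%). The median log2 fold change of all genes tested was -0.15. Dpp4 was again higher, at 10.9, 24.1 and 26.9 CPM in the classical cells (log2 fold change 3.42 ± 0.59, adjusted p = 7.0e-06), as were Klrd1 (2.63 ± 0.56, adjusted p = 0.00042), Siglech (4.06 ± 0.64, adjusted p = 7.4e-07) and Sept6 (2.04 ± 0.58, adjusted p = 0.047). Siglech again lost its call under DESeq2 (adjusted p = 0.0712). Ccl24 was also called (4.40 ± 1.08, adjusted p = 0.00577), nearly all of it from the 4 cells described above, and was not called under DESeq2 (adjusted p = 0.845). Klrk1, the NKG2D receptor, Dpp4, Klrd1 and Siglech were higher against both monocyte classes. Csf3r, a gene of the neutrophil list, Hp, Mgst1 and Pygl were lower against both. The part of neutrophil RNA of the compared classes in these decreases was not tested. The gated cells are the same in both comparisons, so these are not independent.

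Of the 16 genes that were lower, the largest decreases were in granule genes of neutrophils. Camp had no UMI in the gated cells against 576, 9063 and 5494 CPM in the classical class, and S100a8 had 19.0, 291 and 13.4 CPM against 2673, 31319 and 19734 CPM (log2 fold change -8.54 ± 1.62, adjusted p = 5.3e-05). S100a9, Ngp, Lcn2, Ltf and Wfdc21 were lower in the same way. The 5 neutrophil marker genes summed to 5402, 60902 and 38775 CPM in the classical class and to 48185 CPM in the nonclassical monocytes of niacin replicate 2, so their level in the compared classes moves with these calls. Thbs1 (thrombospondin) and Mki67, a marker of cycling cells, also fell, and Mki67 kept 4 UMIs in the gated cells. None of the 7 monocyte genes tested, 9 interferon-stimulated genes or 6 NADPH oxidase genes was called, with medians of -1.25, -0.82 and -0.78.

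**Figure D4:**
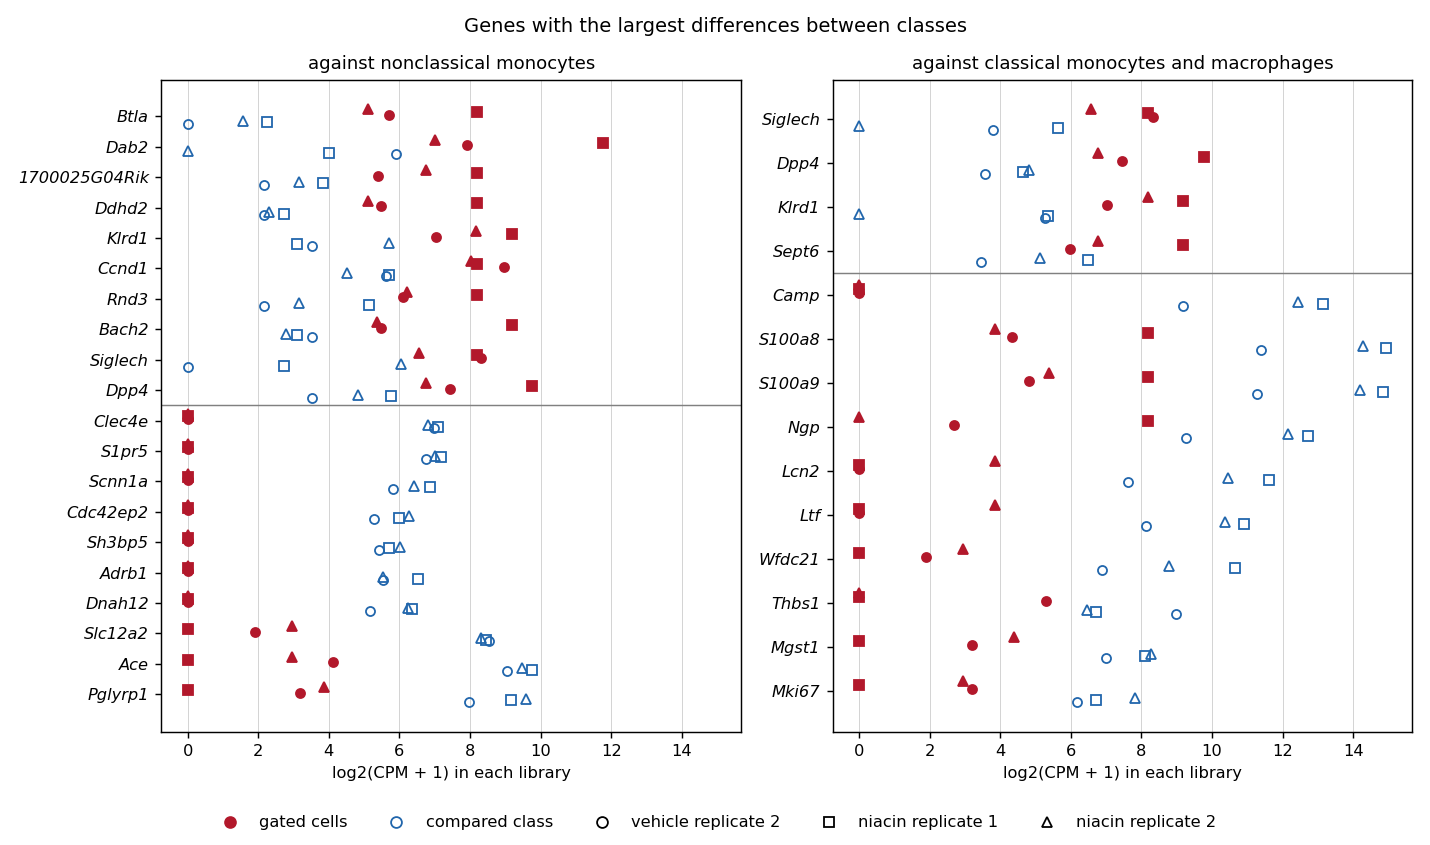
Genes with the largest called differences between the gated cells (filled) and nonclassical monocytes (left, open) or classical monocytes and macrophages (right, open), as log2(CPM + 1) in each of 3 libraries (x axis), with higher genes above the line. Dpp4 stands above both classes in all libraries, and Clec4e, S1pr5 and Camp are at 0 in all gated libraries.

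Microglia (337, 782 and 850 cells), the resident macrophages of the brain, gave the most calls, 1065 of 8895 genes tested, with 371 higher in the gated cells (4.17%) and 694 lower (7.8%). The median log2 fold change of all genes tested was -0.25. Napsa, an aspartic protease, had 322, 1743 and 717 CPM against 8.58, 0.495 and 1.13 CPM in microglia (log2 fold change 7.79 ± 1.06, adjusted p = 6.4e-11), and Tnip3, an inhibitor of NF-kB signaling, rose by 7.29 ± 0.68 (adjusted p = 9.1e-23). Rnd3, Klra17 and Btla rose as well. Slc1a3, a glutamate transporter, had no UMI in the gated cells against 236, 258 and 234 CPM in microglia and was at least 42.4-fold lower, as were Pmp22 and Csmd3 by at least 46.8-fold and 49.1-fold. Lrrc3 and Nuak1 were also at 0. Of 8 dendritic lineage genes tested, 5 rose (Batf3, Bcl11a, Dpp4, Itgax and Zbtb46), Zbtb46 by 3.81 ± 0.66 (adjusted p = 7.7e-07).

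Against microglia 10 of 15 interferon-stimulated genes tested rose and none fell, with a median log2 fold change of 2.76 (Isg15 2.76 ± 0.92, adjusted p = 0.027), and none of 12 was called against nonclassical monocytes, with a median of -0.03. Whether the comparisons differ was not tested. The gated cell of niacin replicate 1 had no UMI of any of the 10 genes that rose. Isg15 stood at 818 CPM in the gated cells of vehicle replicate 2 and at 80.4 CPM in those of niacin replicate 2. All 4 erythroid genes fell against microglia, where they summed to 415, 2141 and 3585 CPM. Of the chemokines, Ccl24 and Cxcl9 rose against microglia and Ccl2, Ccl3, Ccl5 and Ccl12 fell. Of the costimulation genes Cd40 and Tnfsf9 rose against microglia, and Icosl against nonclassical monocytes (2.55 ± 0.63, adjusted p = 0.0040). None of the 9 MHC class I genes tested was called in any of the comparisons with nonclassical monocytes and microglia, nor any of 7 against the classical class.

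Prkcd, Cybb and genes of NAD metabolism were measured too. Cybb, the catalytic subunit of the phagocyte NADPH oxidase, had 869, 581 and 764 CPM in the gated cells against 1980, 1991 and 2255 CPM in nonclassical monocytes (log2 fold change -1.80 ± 1.31, adjusted p = 0.78) and 1493, 1229 and 1313 CPM in classical ones (-1.22 ± 1.18, adjusted p = 1.0), and 146, 17.1 and 28.6 CPM in microglia, over which it rose by 3.66 ± 1.09 (adjusted p = 0.012). The gated cells lay below both monocyte classes in each library, within the error of the test. Prkcd, a protein kinase C, had 636, 872 and 228 CPM and was not called in any comparison (adjusted p = 0.98, 1.0 and 0.87). Of the NAD genes, Hcar2, a niacin receptor, had 6 UMIs in the vehicle cells and none in the niacin cells, Naprt, which starts NAD synthesis from niacin, had 2 UMIs, both in niacin replicate 2, and Nampt had 420, 0 and 53.6 CPM.

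These calls rest on vehicle replicate 2 and niacin replicate 2 together. Without vehicle replicate 2, and again without niacin replicate 2, no gene was called against nonclassical monocytes, 0 and 1 against classical ones, and 53 and 87 against microglia. Without niacin replicate 1 the counts were 335, 32 and 1967. Without the 10 cells that stood apart by plasmacytoid, choroid plexus or Ccl24 UMIs, 98, 17 and 802 genes were called, and with only the 22 cells that had a Cd209a UMI, 64, 17 and 371. In both reduced sets Dpp4 was called higher than in each monocyte class. Siglech passed the filter in neither set against the classical class, and against nonclassical monocytes only in the cells with Cd209a (log2 fold change 2.87, adjusted p = 0.0226).

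Niacin and vehicle were set side by side without a test, and since niacin replicate 1 gave 1 cell, the ratio of niacin replicate 2 to vehicle replicate 2 is given with its Poisson 95% interval. Of 4084 genes with at least 20 UMIs in the pair, the interval lay above 1 for 425 (10.4%) and below 1 for 972 (23.8%). Scaling by TMM factors would multiply each ratio by 1.08. Interferon-stimulated genes were lower in niacin replicate 2 for 15 of 16 genes, with a median ratio of 0.131. Isg15, a ubiquitin-like protein, had 818 CPM in vehicle replicate 2 and 80.4 CPM in niacin replicate 2, a ratio of 0.0984 (0.0503 to 0.174). Irf7, which drives type I interferon genes, had 609 and 181 CPM. Cxcl10, a chemokine that draws T cells, had 1465 CPM in vehicle replicate 2, from 21 of 37 cells, and no UMI in niacin replicate 2, where it was at least 72.8-fold lower. Of the vehicle Cxcl10 UMIs 1 cell held 47.9%. Cxcl9 had 1162 and 101 CPM.

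The same direction was found in the other classes, where 16 of 16 interferon-stimulated genes were lower in niacin replicate 2 than in vehicle replicate 2, with median ratios of 0.148 in nonclassical monocytes, 0.215 in classical ones and 0.233 in microglia. All classes share the same pair of libraries, so these are not separate observations, and a difference between the libraries as a whole cannot be told apart from niacin. MHC class I genes were lower for 7 of 9 in the gated cells, with B2m at 4032, 1162 and 1810 CPM in the 3 libraries and a ratio of 0.449 for niacin replicate 2.

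For MHC class II genes, of 10 measured in the gated cells, 4 (H2-Aa, H2-Ab1, H2-Eb1 and Cd74) had an interval above 1, 1 below and 5 across it. H2-Aa is counted here although each gated cell was chosen for having it. The ratio was 2.14 for H2-Eb1 (1.97 to 2.32), 1.74 for Cd74 (1.66 to 1.82) and 0.429 for Ciita (0.281 to 0.635). In the other classes none of the measured class II genes had an interval above 1, and 7 of 7, 7 of 9 and 6 of 10 lay below it in nonclassical monocytes, classical monocytes and microglia. The difference between the classes was not tested. Vehicle replicate 2 is also the library in which T cells carried H2-Aa most often, and that background was not removed.

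**Figure D5:**
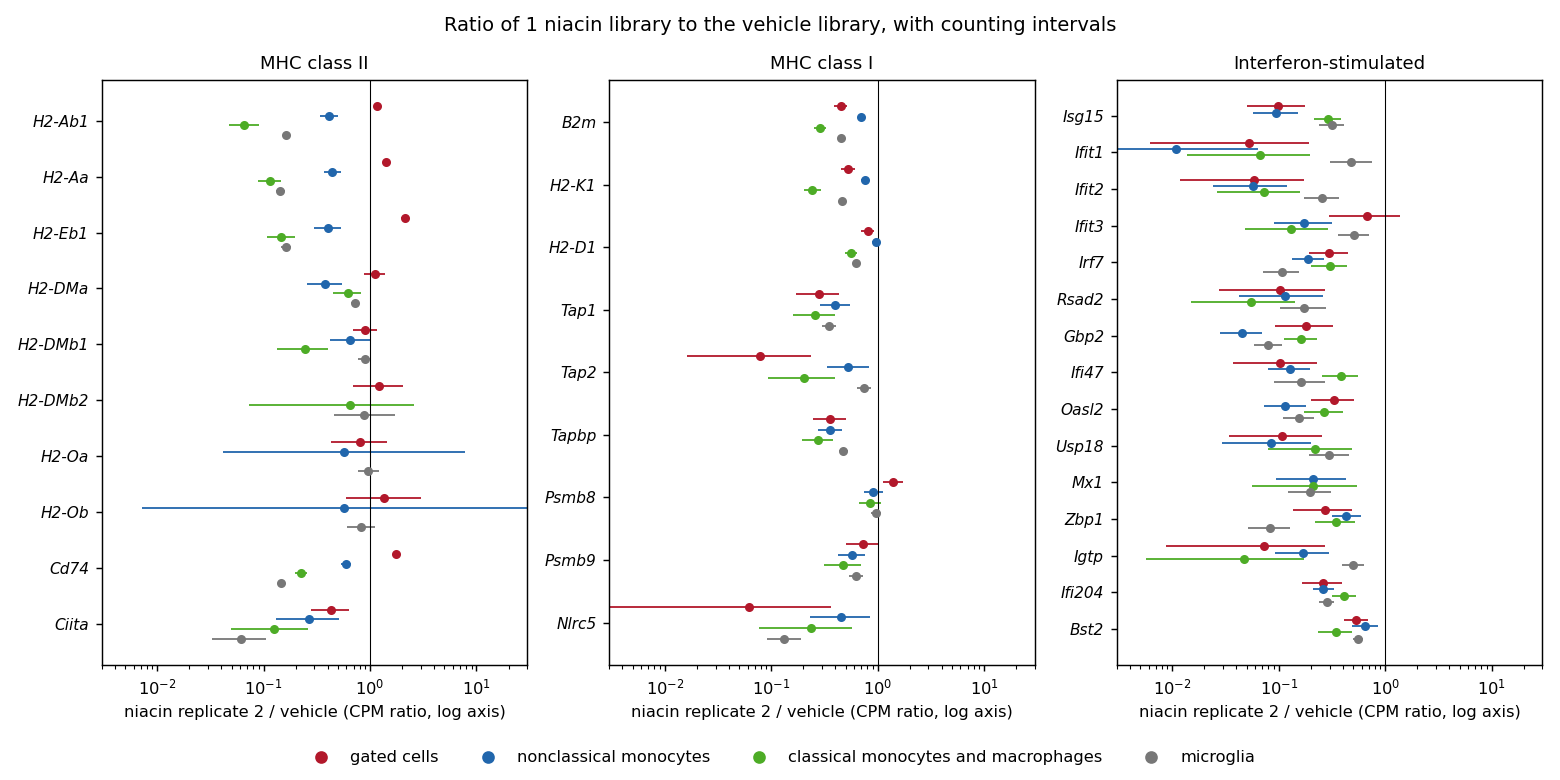
Ratio of CPM in niacin replicate 2 to vehicle replicate 2 (x axis, log scale) for genes of the MHC class II, MHC class I and interferon-stimulated lists (y axis) in 4 classes of cells (colors), with exact Poisson 95% intervals; Mx1 and other genes with no UMI in 1 of the libraries have no point in that class. In the gated cells H2-Ab1, H2-Eb1, Cd74 and the rule's H2-Aa lie above 1, and the interferon-stimulated genes lie below 1 except Ifit3, whose interval crosses it.

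The genes of the rule chose the cells, so their levels are a description. Clec10a had 179 and 382 CPM in vehicle replicate 2 and niacin replicate 2, and Mgl2 160 and 449 CPM, of which 71.6% came from the Retnla cell. Kmo had 360 and 93.8 CPM, and Cd209a 292 and 369 CPM. As for other lectins, Clec12a had 35.2 and 315 CPM. Of the monocyte genes, 4 (Ccr2, Chil3, Lyz2 and S100a4) had an interval above 1 and 6 below it. Ccr2, the receptor by which monocytes leave the marrow, had 417, 2615 and 1341 CPM, Lyz2 (lysozyme) 2201, 0 and 5349 CPM, Chil3 8.12, 0 and 563 CPM, and Ly6c2 948, 0 and 335 CPM. Of the 84 Chil3 UMIs of niacin replicate 2, 79 (94.0%) came from 1 cell. Of the 350 Ly6c2 UMIs of vehicle replicate 2, 172 came from the cell with 99 UMIs of Ccr9. All 5 plasmacytoid genes with 20 UMIs were lower in niacin replicate 2. At least 4 of the 6 plasmacytoid genes were found in 1 of its 12 gated cells and in 4 of the 37 of vehicle replicate 2, which are similar shares. Costimulation genes were lower for 5 of 8, among them Cd86 (284 and 46.9 CPM) and Cd40 (200.4 and 40.2 CPM), and Il1b had 417 and 20.1 CPM. Il12b had no UMI in any gated cell.

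Past 2-fold in both niacin libraries, the rule for naming genes, were 64 of 4111 genes (1.56%), 57 of them higher (1.39%) and 7 lower (0.17%). That split is largely set by the single niacin replicate 1 cell. There 1 UMI stands for 291 CPM, so genes with low vehicle levels passed that ratio on 1 UMI. A count of 0 there was set to 3 UMIs, 872 CPM, so a gene at 0 could pass as lower only from a high vehicle level. Cxcl10, at 1465 CPM in vehicle replicate 2 and 0 in both niacin libraries, was not among the 7. With TMM scaling, which weighs the single niacin replicate 1 cell differently, the split was 19 higher and 153 lower. The 8 highest were Clec12a, Rgs18, Fosb, Kxd1, Pid1, Selenoh, Tnni2 and Fam69a, each on 1 to 3 UMIs in niacin replicate 1. The 7 lower genes were Ttr, Gm42418, Ly6a, Ccnd2, Ctsc, Trim30a and B2m, of which Ttr rests on the choroid plexus-positive vehicle cell and Gm42418 overlaps ribosomal RNA repeats. Ly6a (Sca-1), which interferon raises, had 1300 CPM in vehicle replicate 2, 291 in niacin replicate 1 and 161 in niacin replicate 2.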

How the data were processed

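For each library the authors deposited a matrix of raw UMI counts, made with Cell Ranger v3.1 and STAR on mm10 from Chromium 3′ v3.1 libraries of live sorted cells. Totals ran from 8301228 to 10359526 UMIs over 31053 genes. Cells with under 200 genes or over 20% mitochondrial UMIs, and shared barcodes without 5 times the UMIs of their copy, were removed. The cells and gene lists were chosen with earlier results of these data known. UMIs were summed per class and library and tested with edgeR 4.0.16 in R 4.3.3 (TMM, filterByExpr, library block), with DESeq2 1.42.0 as an alternative. An SE is the log2 fold change divided by the root of F. On simulated counts, of genes changed by 4 on the log2 scale 71% were recovered against nonclassical monocytes (4579 genes). Against classical ones (2376 genes) the share was 79% and against microglia (8920 genes) 82%. Of genes changed by 2, 10%, 36% and 9% were recovered, with 1, 4 and 8 false calls in the 3 simulations. The simulation gave all genes of a comparison the same dispersion and no library effect, so these shares may not hold for genes carried by few cells. Genes were named where the adjusted p was under 0.05, all 3 libraries moved one way and the higher class averaged 50 CPM or more: up to 10 each way by fold (5 for microglia). Among genes higher in the gated cells the 50 CPM limit removed none. Such a gene needed at least 1 UMI in the niacin replicate 1 cell, which stands for 291 CPM. For niacin, up to 8 each way past 2-fold in both libraries were named. Members of the lists, and genes of the study's question, were named besides. Niacin ratios took genes with 20 UMIs or more, and a count of 0 was set to 3 for bounds. Doublets were not called. Some members of the lists enter the counts but are not reported here by name.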

Additional observations from a re-analysis of the deposited data

How the results depend on the processing

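The counts of genes called moved with most settings. DESeq2 called 242 genes against nonclassical monocytes and 40 against classical ones. Without library as a replicate block 262 and 1895 genes were called against nonclassical monocytes and microglia, and 16 against classical ones. No paired analysis between treatments was possible, because there is 1 vehicle library and the labels do not pair it with a niacin library. With shared barcodes kept the counts were 289 and 69 against the monocyte classes, and without the filter on low counts 99 against classical monocytes. Leaving out cells with 2 or more other-cell markers gave 17 against nonclassical monocytes and 377 against microglia, and the classical comparison could not be fitted. Leaving out the top 5% of UMIs gave 64, 13 and 552 against nonclassical monocytes, classical monocytes and microglia, and thinning to 2000 UMIs gave 40, 7 and 224, with fewer genes tested. At least 3 of the 6 genes gave 579 against microglia, and only cells with a Cd209a UMI, a setting chosen after seeing the data, 64 and 371 against nonclassical monocytes and microglia. Leaving out each library in turn gave 0 to 335, 0 to 32 and 53 to 1967. The cause of these shifts was not tested further.

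Of single genes, Ly6d against nonclassical monocytes ranged from -0.54 to 2.68 on the log2 scale over the libraries left out, negative without vehicle replicate 2. Cox6a2 against microglia ranged from -7.49 (without vehicle replicate 2) to 2.58, and was -7.69 without the cells that stood apart. Among the other values of named genes and lists 263 lost their call, 61 values without a call moved, and 1210 stayed the same by the rule for their kind of value.

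The vehicle share was 1.42% at 3 of the 6 genes, and niacin replicate 1 had 0 cells at a 10% mitochondrial limit. Thinning gave 80% of cells with dendritic lineage markers and 11.1% with plasmacytoid ones, and 1 marker in place of 2 gave 76% for plasmacytoid and 98% for monocyte genes. Genes past the fold between niacin and vehicle numbered 146 at 1.5-fold, 33 at 50 UMIs or more, 172 with TMM scaling and 24 after thinning, and 652 to 1454 with 1 niacin library. Depth limits all of this: niacin replicate 1 rests on 1 cell.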
